A study of Mus musculus with 4 samples.

Results

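Chromatin at 10 genes that make and run the nucleolus was described in mouse pre-B leukemia cells: Ubtf, Polr1a, Polr1b, Rrn3, Ncl, Npm1, Fbl, Nop56, Nop58 and Nolc1. The genes were chosen by name, with earlier results of these data known, and are 10 of the 21900 protein-coding genes of the gene table used. Peaks of PHF6, H3K27ac and H3K27me3 were assigned to a gene when they overlapped its body or the 10 kb on either side. These windows held 35 of the 77749 PHF6 peaks, 21 of the 32388 H3K27ac peaks and 5 of the 5616 H3K27me3 peaks.

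The material was a culture of C57BL/6J pre-B leukemia cells carrying BCR-ABL1, an activated tyrosine kinase fusion, on a p19 null background, and all 4 libraries share this genotype. The libraries were chromatin immunoprecipitations (ChIP-seq) with antibodies to PHF6, H3K27ac and H3K27me3, and an input DNA library without antibody, which was not analysed here. Each antibody had 1 library, so no value has a replicate error and no difference between genes was tested. The labels do not say whether the culture came from 1 clone or 1 animal, and the cells were not compared with PHF6-deficient or normal B cells here. As a check of the label, an H3K27ac peak lay within 1 kb of a start site in 6 of 9 pre-B marker genes that could be assessed (66.7%, close to the 63.7% of all genes), with heights of 297 to 329 at Cd79a, Pax5, Ebf1, Vpreb1 and Igll1 and 106 at Blnk. Rag1, Rag2 and Dntt had none. The same held for 1 of 4 T-cell markers (Lck, 109), 0 of 3 myeloid markers and 1 of 4 erythroid markers (Klf1, 283). In the wider gene window H3K27ac was present at 8 of 10 pre-B and 3 of 4 myeloid markers, so these counts do not by themselves set the cell type apart.

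RNA polymerase I transcribes the ribosomal RNA repeats into a single large precursor inside the nucleolus. UBTF (also called UBF) coats the active repeats, and RRN3 (TIF-IA) links the polymerase to its promoter complex. The precursor is then cut, modified by small nucleolar RNPs and assembled with ribosomal proteins, and this output is high in growing leukemia cells. PHF6 is a zinc-finger protein of chromatin that has been described in the nucleolus of human cells, where it contacts UBF. H3K27ac marks active promoters and enhancers, whereas H3K27me3 is laid down by Polycomb repressive complexes. The ribosomal RNA repeats themselves were not analysed here, so the values below concern the genes that encode the machinery.

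All 10 genes had an H3K27ac peak in their window, 9 had a PHF6 peak and 3 had an H3K27me3 peak. Over all 16962 protein-coding genes placed by the same method, the shares with a peak in the window were 74.8% for H3K27ac, 83.7% for PHF6 and 21.2% for H3K27me3. Nop58, which encodes a core protein of the box C/D particles, was the gene without PHF6. Long genes and genes with near neighbours catch more peaks, so the start sites give the sharper view. An annotated start site was at hand for 8 of the 10 genes, all but Npm1 and Fbl. Each of these 8 had an H3K27ac peak within 1 kb of a start site (63.7% of 14330 genes), 6 had a PHF6 peak (69.1%) and 0 had an H3K27me3 peak (3.53%). PHF6 and H3K27ac were both present at 6 of 8 (57.9% of all genes). The PHF6 count is close to its background. Among genes with an acetylated start site, PHF6 was at 6 of these 8 and at 90.9% of all such genes. With an H3K27ac height of 200 or more it was at 6 of 7, all but Nop58, and at 95.6% of all such genes. With 8 genes, these shares are descriptions and no list was tested against the rest.

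**Figure D1:**
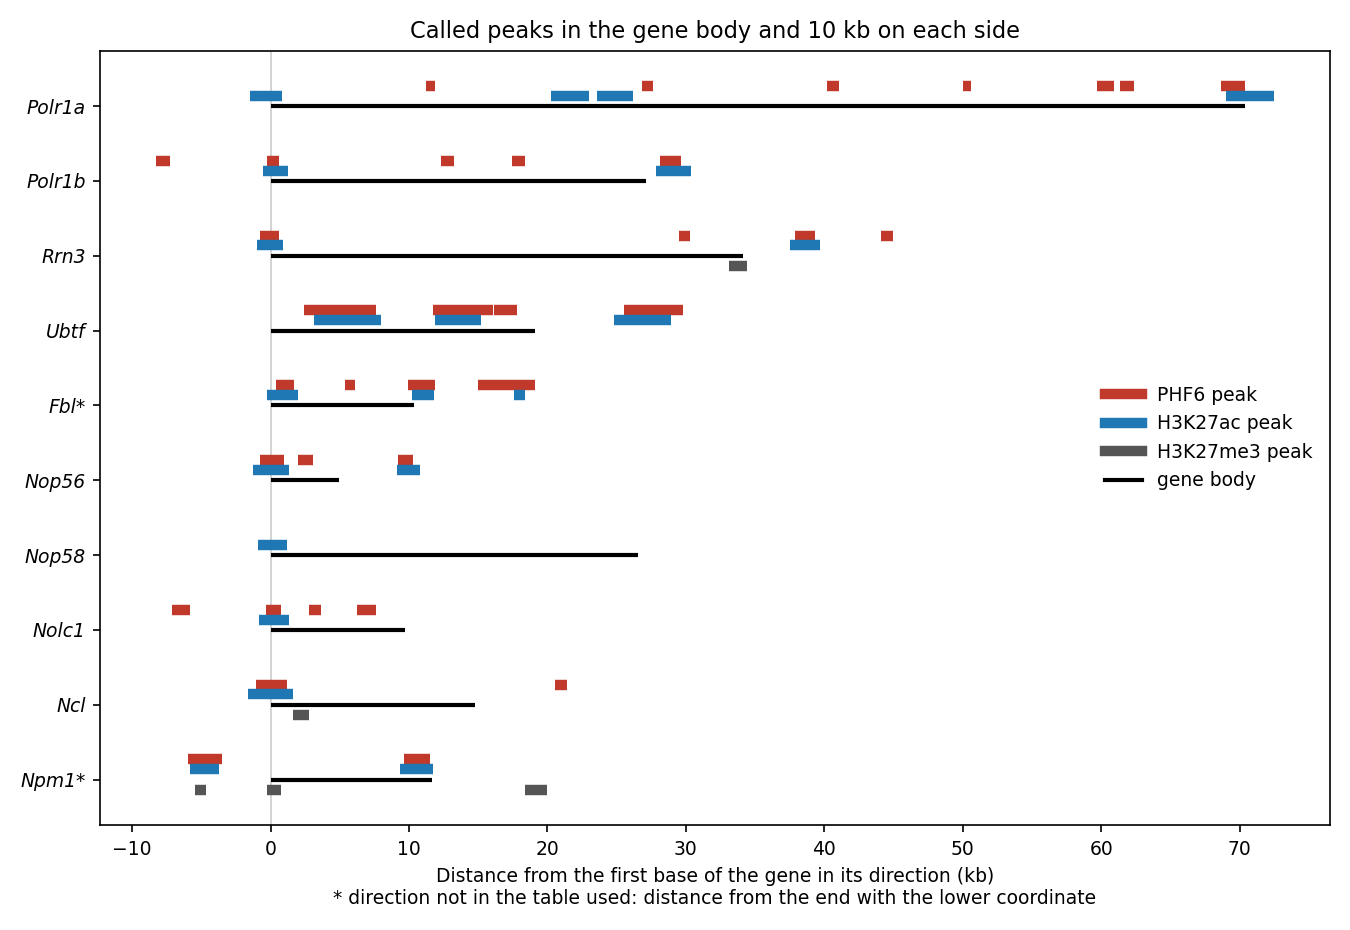
Peaks of PHF6 (red), H3K27ac (blue) and H3K27me3 (grey) along each gene (black line), by distance in kb from its first base; for Npm1 and Fbl, marked with an asterisk, distance is from the end with the lower coordinate. The tallest H3K27ac peak sits at the first base of 7 genes with a known direction and at start sites inside Ubtf, Nop58 has no PHF6 peak and Polr1a has 7, none at its start.

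The signal deposited with each summit is a pileup height, and heights are compared only within 1 antibody. The largest height was 400 in every list, and whether heights were capped there was not tested. At the start sites the tallest H3K27ac summit stood at 371 for Ubtf, 367 for Ncl, 338 for Nop56, 313 for Rrn3, 296 for Nolc1, 282 for Polr1b, 207 for Nop58 and 156 for Polr1a. A height of 200 or more was reached by 7 of the 8, all but Polr1a (39.5% of all genes). Genes were placed by matching H3K27ac summits of this same height to start sites, so this count is not independent of the placement. The median of the 8 was 304.5, and that of the 9127 genes with an H3K27ac peak at a start site was 254.0 (quartiles 93.5 and 318.0). PHF6 summits at the same start sites stood at 60 for Ubtf, 50 for Ncl, 38 for Nop56, 35 for Polr1b, 30 for Rrn3 and 27 for Nolc1. Their median of 36.5 lay near the 33.0 of the 9902 genes with a PHF6 peak there (quartiles 27 and 40). By height, Ubtf, Ncl and Nop56 led in both marks in the same order. By deposited PHF6 score, Nop56 (103.37) stood below Rrn3 (182.86) and Polr1b (165.64), while Ubtf and Ncl still led. Over the 8292 genes with both peaks at a start site, the heights had a Spearman rho of 0.608, a correlation across genes of libraries from the same culture, with no test. Within the 6 genes, Rrn3 and Nolc1 had more H3K27ac but less PHF6 than Polr1b.

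**Figure D2:**
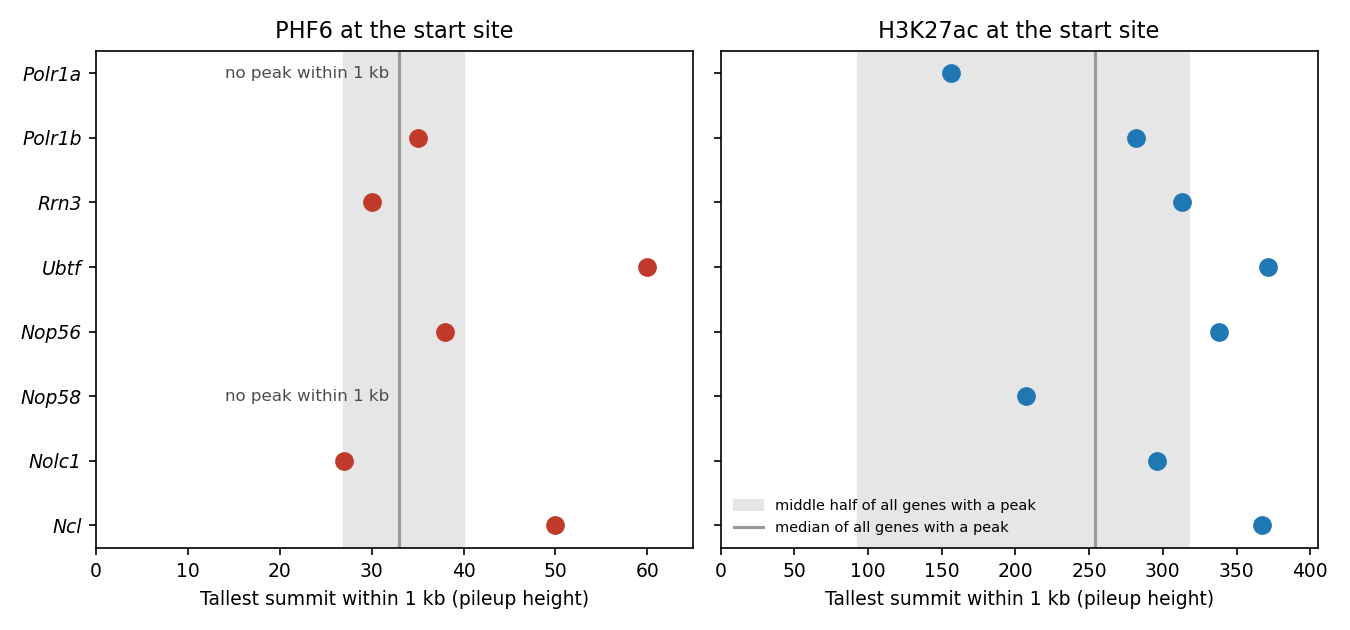
Tallest PHF6 (left) and H3K27ac (right) summit within 1 kb of a start site for the 8 genes with an annotated start site, as deposited pileup height; the grey band spans the quartiles and the line is the median of all genes with such a peak. Ubtf and Ncl stand above the band in both panels, and Polr1a and Nop58 have the lowest H3K27ac and no PHF6 peak.

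**Figure D3:**
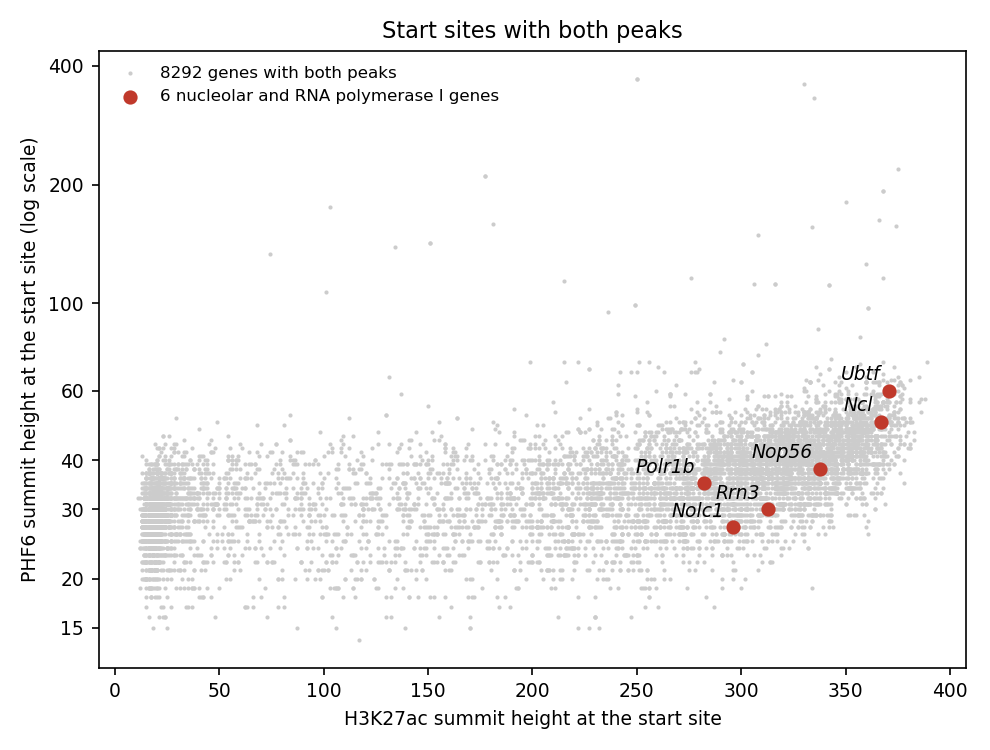
PHF6 summit height (log scale) against H3K27ac summit height at the start sites of 8292 genes with both peaks (grey) and of 6 of the 10 genes (red, named). Ubtf (371, 60) and Ncl (367, 50) lie at the upper right.

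Positions in mm9 given below for genes are estimates. Ubtf (chr11:102165857-102184946, minus strand), the architectural factor of active ribosomal RNA genes, had the tallest PHF6 and H3K27ac summits at a start among the 8 genes with a start site. Its PHF6 peak at chr11:102177317-102182545 (mm9) was 5229 bp wide, wider than 99.4% of the PHF6 list, and its height of 60 put it in the top 0.42% of that list, whose median height is 22. The H3K27ac peak there, chr11:102176947-102181842, was 4896 bp wide with a height of 371, also in the top 0.42% of its list. Among the start-site peaks of all genes the heights stood at percentiles 98.7 for PHF6 and 98.8 for H3K27ac. Ubtf has 6 annotated start sites, and these broad peaks reach several of them. Further along the gene a PHF6 peak of height 29 coincided with an H3K27ac peak of height 127, 5347 and 7264 bp past the nearest start site. Another PHF6 peak of height 17, without H3K27ac, lay 10326 bp past it. Both marks were also present beyond the 3′ end, at heights of 43 and 331, where the start of Atxn7l3, a subunit of the SAGA deubiquitinase module, is annotated. Gm33851 starts under the same peaks. The window held no H3K27me3 peak, and the nearest to the gene was 111.8 kb away.

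The catalytic core of the enzyme was split. Polr1a (chr6:71859084-71929466, plus strand), the largest subunit of RNA polymerase I, had an H3K27ac peak of height 156 at chr6:71857597-71859928 and no PHF6 peak within 11.2 kb of its start. The H3K27ac summit lay at -275 bp from the Polr1a start, and the divergent gene Ptcd3, which encodes a mitochondrial ribosome-associated protein, starts 291 bp away, so the peak is within 1 kb of both starts. Its summit lay nearer to the Ptcd3 start, so the peak cannot be given to Polr1a alone. Polr1a nevertheless had 7 PHF6 peaks, the most of the 10 genes, along the longest gene body. Their heights were low, from 17 to 23, and 6 of the 7 had no H3K27ac. The one that did lay at the 3′ end, beside an H3K27ac peak of height 30. H3K27ac peaks of heights 33 and 64 lay in the body without PHF6.

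Polr1b (chr2:128926734-128953824, plus strand), the other large subunit, had both marks at its start. Its H3K27ac peak, chr2:128926165-128927991, had a height of 282 and its PHF6 peak, chr2:128926488-128927339, a height of 35. The noncoding gene Gm46764 starts 53 bp away on the other strand. The window also held PHF6 peaks of 22, 26 and 17 without H3K27ac, and a pair of peaks (PHF6 24, H3K27ac 211) at the start of Chchd5, a mitochondrial protein gene.

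Rrn3 (chr16:13780774-13814916, plus strand), the factor that makes RNA polymerase I competent to initiate, had H3K27ac of height 313 at chr16:13779786-13781667 and PHF6 of height 30 at chr16:13779989-13781410. Its neighbour Ntan1, an N-terminal amidase, had H3K27ac of 257 and PHF6 of 32 at its own start. PHF6 peaks of 18 in the gene and 23 beyond it had no H3K27ac. An H3K27me3 peak of height 21 at chr16:13813861-13815180 covered the 3′ end of Rrn3, 33571 bp from the start, with neither of the other marks.

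The box C/D particles, which guide methylation of ribosomal RNA, gave a contrast between paralogs. Nop56 (chr2:130100107-130105053, plus strand) had H3K27ac of height 338 and PHF6 of height 38, with summits at 130100361 and 130100366 on chromosome 2. A PHF6 peak of 26 lay 2704 bp into the gene, and Idh3b, a mitochondrial dehydrogenase subunit, brought a further pair (PHF6 32, H3K27ac 280) into the window. Nop58 (chr1:59741923-59768472, plus strand) had H3K27ac of height 207 at chr1:59741003-59743094 and no other peak in its window. Its nearest PHF6 peak, of height 38, lay 13.6 kb from the gene, beside an H3K27ac peak of height 344. Both genes host small nucleolar RNA genes, 5 annotated in Nop56 and 4 in Nop58. Fbl (chr7:28953935-28964311), the methyltransferase of these particles, has no annotated start site in the tables used. An H3K27ac peak of height 317 and a PHF6 peak of height 36 lay together at its lower-coordinate end, with summits 936 and 902 bp inside the gene. The noncoding gene Gm31024 starts within 1 kb of both peaks, so the pair cannot be given to Fbl alone. At the other end the pair at the start of Dyrk1b, a protein kinase, was weaker in H3K27ac (38) with PHF6 of 31. The Fbl window also held PHF6 peaks of 16, without H3K27ac, and 25, on an H3K27ac peak of height 16.

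Nolc1 (chr19:46150362-46160058, plus strand), a phosphoprotein that escorts small nucleolar RNPs, had H3K27ac of height 296 at its start and the lowest PHF6 summit of the 6, at 27. Its tallest PHF6 peak, of height 38, instead lay at -6371 bp from the start, chr19:46143257-46144567, with no H3K27ac or H3K27me3 peak. PHF6 peaks of 17 and 24 lay in the gene, also without H3K27ac.

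Ncl (chr1:88241245-88255981, minus strand) and Npm1 (chr11:33052447-33064091) encode nucleolin and nucleophosmin, abundant nucleolar phosphoproteins that bind RNA and help to assemble ribosomes. At the Ncl start H3K27ac reached 367 in a 3320 bp peak (chr1:88254331-88257650) and PHF6 reached 50 in a 2208 bp peak (chr1:88254820-88257027), in the top 0.7% and 1.2% of their lists by height. Among the start-site peaks of all genes they stood at percentiles 98.0 and 94.3, and by deposited score the PHF6 peak stood at percentile 81.5 of its list. The summits were 1 bp apart. The noncoding gene C130036L24Rik starts 129 bp away on the other strand. An H3K27me3 peak of height 21 (chr1:88253215-88254337) met the inner edge of this H3K27ac peak, with its summit 2154 bp past the start, and did not overlap PHF6. In Npm1 an H3K27ac peak of 330 and a PHF6 peak of 40 lay near the higher-coordinate end of the gene, with summits 10303 and 10172 bp from the lower end. Npm1 had 3 H3K27me3 peaks in its window. The tallest, of height 26, lay at the lower-coordinate end at chr11:33052203-33053217 without the other marks. The next, of height 15, was under the PHF6 (43) and H3K27ac (55) peaks at the start of Fgf18, a growth factor gene, and was the one place in the windows where the 3 marks overlapped. The last, of height 13, stood alone beyond the other end.

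Where PHF6 and H3K27ac met at a start, their summits were close. The distance was 1 bp at Ncl, 5 bp at Nop56, 10 bp at Polr1b, 35 bp at Nolc1, 69 bp at Rrn3 and 548 bp at Ubtf, with a median of 22.5 bp. Over the 8292 genes with both it was 86.0 bp (quartiles 32.0 and 269.0), and 54.3% lay within 100 bp. In all 6 genes the PHF6 summit was downstream of the nearest start site, by 113 bp at Rrn3, 131 bp at Polr1b, 203 bp at Ncl, 214 bp at Nop56, 222 bp at Ubtf and 230 bp at Nolc1. Over all genes with a PHF6 peak at a start site, 73.7% were downstream and the median was 182.0 bp. Moving the genes between builds adds an error, and other ways of estimating it shifted the 8 genes by 19 to 163 bp, so single distances of this size are uncertain. Distances between summits do not depend on it. The input library was not analysed here, and signal common to all libraries at these start sites was not tested.

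Of the 35 PHF6 peaks in the windows, 17 overlapped H3K27ac (48.6%, against 30.3% of the PHF6 list) and 18 did not. The 17 had heights of 22 to 60 with a median of 32.0 and a median width of 1770 bp. The 18 had heights of 16 to 38 with a median of 21.5 and a median width of 916 bp. By position, 6 PHF6 peaks lay at a start of one of the 10 genes, 6 at the start of another protein-coding gene and 23 elsewhere, including those in the bodies of Npm1 and Fbl. Noncoding starts were not counted, so the Fbl peak at the start of Gm31024 is among those elsewhere. All 12 at these protein-coding starts overlapped H3K27ac, and 5 of the 23 elsewhere did. Over all genes, 9902 had PHF6 within 1 kb of a start site and 8292 had both PHF6 and H3K27ac there, so most starts with PHF6 have both. Among the 21 H3K27ac peaks, the 8 at the genes' own starts had a median height of 304.5 and the 6 at other protein-coding starts one of 234.0. Peak assignment by window therefore mixes the 10 genes with their neighbours Atxn7l3, Chchd5, Ntan1, Idh3b, Dyrk1b and Fgf18. The H3K27ac peak counted at the Polr1a start is also at the start of Ptcd3. The peaks closest to the limit from outside were PHF6 peaks 10.5 kb from Nolc1 (height 27) and 10.8 kb from Polr1a (18), and the one that reached in least was a PHF6 peak of height 23 at Rrn3, whose summit lay 10287 bp beyond the gene.

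The bases before the start sites were compared because Polr1a and Nop58 were acetylated without PHF6. Promoter sequences were found for 8 of the 10 genes in RefSeq (GRCm38.p6, whose coordinates differ from the mm9 positions of the peaks). The 250 bases before the start are shown 5′ to 3′ on the gene's strand for the pair of genes without PHF6 at the start, for Nop56 as the paralog of Nop58, for Ncl as the gene with a single start site and the most PHF6, and for Rrn3, which holds E-boxes. Capitals mark the searched motifs. They stand at chr6:71908803-71909052 (+), chr1:59684756-59685005 (+), chr2:130274162-130274411 (+), chr1:86359456-86359705 (-) and chr16:13780449-13780698 (+).
Polr1a: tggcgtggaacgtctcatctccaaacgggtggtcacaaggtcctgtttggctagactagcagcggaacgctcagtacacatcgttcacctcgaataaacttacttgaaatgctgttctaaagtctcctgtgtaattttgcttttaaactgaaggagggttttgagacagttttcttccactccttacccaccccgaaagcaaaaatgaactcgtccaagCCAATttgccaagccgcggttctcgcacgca
Nop58: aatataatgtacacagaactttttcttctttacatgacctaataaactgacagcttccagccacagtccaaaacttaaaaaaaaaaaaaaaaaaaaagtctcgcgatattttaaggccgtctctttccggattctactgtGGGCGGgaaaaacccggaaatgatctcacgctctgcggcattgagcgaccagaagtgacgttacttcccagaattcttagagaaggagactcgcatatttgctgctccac
Nop56: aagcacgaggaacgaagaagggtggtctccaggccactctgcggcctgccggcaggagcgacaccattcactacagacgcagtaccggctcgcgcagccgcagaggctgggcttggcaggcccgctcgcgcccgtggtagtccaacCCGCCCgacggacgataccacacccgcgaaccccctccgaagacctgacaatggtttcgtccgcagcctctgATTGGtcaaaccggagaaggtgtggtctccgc
Ncl: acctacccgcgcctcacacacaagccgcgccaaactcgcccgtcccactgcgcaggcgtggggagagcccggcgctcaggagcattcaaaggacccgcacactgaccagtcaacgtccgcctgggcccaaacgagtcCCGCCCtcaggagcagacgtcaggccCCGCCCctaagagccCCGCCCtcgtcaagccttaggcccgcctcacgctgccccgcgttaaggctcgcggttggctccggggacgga
Rrn3: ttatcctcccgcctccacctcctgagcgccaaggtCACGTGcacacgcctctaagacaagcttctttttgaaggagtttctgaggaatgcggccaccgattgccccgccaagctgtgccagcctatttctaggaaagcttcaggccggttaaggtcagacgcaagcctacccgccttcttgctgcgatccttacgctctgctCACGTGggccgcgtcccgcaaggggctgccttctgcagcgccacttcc

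G and C made up 41.2% of these bases in Nop58 and 47.6% in Polr1a. The genes with 1 start site and PHF6 had 49.6% (Polr1b), 56.4% (Nolc1), 59.6% (Rrn3), 65.2% (Nop56) and 69.6% (Ncl), so the groups did not overlap, although Polr1b and Polr1a were close. Ubtf, which also has PHF6, ranged from 46.0% to 82.0% over its 6 start sites, so its lowest value was below that of Polr1a. Among all genes with 1 start site and H3K27ac there, the 6601 with PHF6 had a median of 61.6% (quartiles 56.0 and 68.0) and the 703 without PHF6 had 52.4% (48.0 and 56.8). With H3K27ac of height 150 or more, the medians were 62.0% in 4680 genes and 53.6% in 322. CG pairs numbered 13 in Polr1a and 11 in Nop58, against 10 in Polr1b and 27 in Ncl, so their count did not separate these genes. Over all genes with 1 start site and H3K27ac there, the median was 17 CG pairs with PHF6 (quartiles 12 and 24) and 10 without (5 and 15). With H3K27ac of height 150 or more it was 18 and 12. The share with PHF6 also varied with H3K27ac height, though not in 1 direction. It was 86.5% of the 2346 genes with H3K27ac of at most 99 at a start site, 76.0% of the 1121 with 100 to 199, 87.7% of the 986 with 200 to 249, 95.4% of the 1557 with 250 to 299 and 98.2% of the 3117 with 300 or more. Polr1a (156) and Nop58 (207) thus also have less H3K27ac than the other 6 genes, and the part of base composition or of H3K27ac height in the missing PHF6 calls was not tested.

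**Figure D4:**
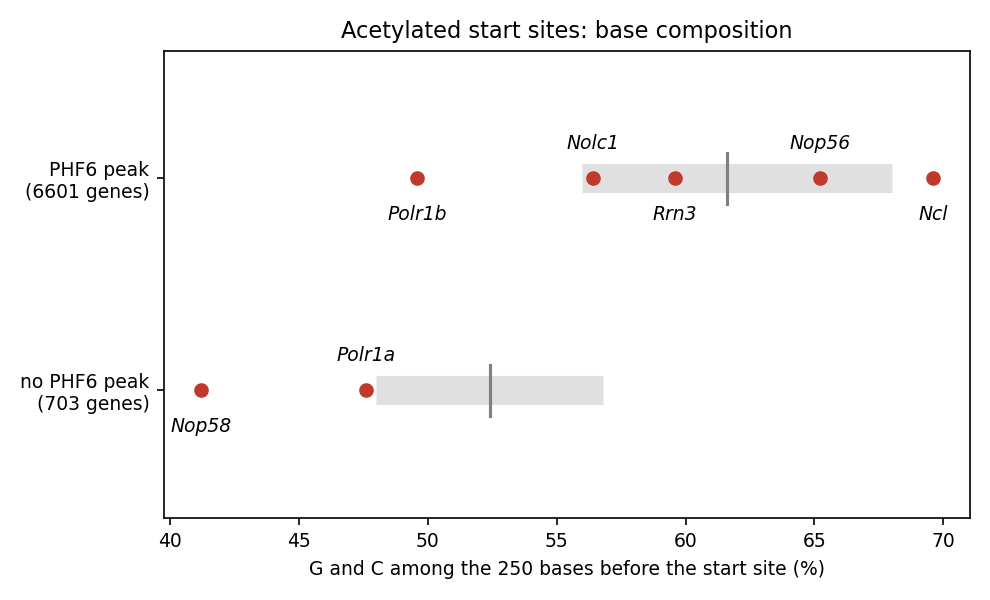
Share of G and C in the 250 bases before the start site (x axis, %) for the named genes with 1 start site (red points) by presence of a PHF6 peak; grey bars and lines give quartiles and medians of all genes with 1 start site and H3K27ac there. Nop58 and Polr1a lie at 41.2% and 47.6%, below the 5 genes with PHF6 and 1 start site. Ubtf, with more than 1 start site, is not shown.

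Short motifs were read on both strands of the same 250 bases. Ubtf was searched at all 6 start sites, so the 8 genes hold 13 promoters, and the shares in brackets or beside the counts are of promoters, not genes. GGGCGG, the GC box bound by SP1-type factors, was in 6 of the 8 genes, all but Polr1a and Rrn3. It was in 10 of the 13 promoters, 5 of these 10 being Ubtf promoters, and in 32.7% of all 32851 promoters of the table. CACGTG, the E-box read by MYC and MAX among others, was in 1 gene, Rrn3, which held it at both -215 to -210 and -48 to -43 from the start, and in 6.02% of promoters. CCAAT was in Polr1a, Nop56 and 1 of the 6 Ubtf promoters, 3 of 13 in all (33.8%). CCGGAAG, an ETS-type motif, was in Nolc1 (6.91%). TATAAA (12.4%), AANATGGCG of YY1 type (1.12%) and the palindromes known for NRF1 (0.782%) and for ZBTB33 (0.39%) were in none of the 8. CACGTG reads the same on both strands, and no motif searched contains another. These matches describe letters in a window and are not evidence of binding.

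Other genes of the same pathway were set beside the 10. Of 61 listed genes, 50 could be placed and 49 had a start site. H3K27ac was at the start of all 49, PHF6 at 44 and H3K27me3 at 3, against the shares of 63.7%, 69.1% and 3.53% over all genes. Among the RNA polymerase I machinery, all 15 genes had both H3K27ac and PHF6. PHF6 heights there ran from 18 at Znrd1 to 48 at Polr1c and Polr2h, and H3K27ac heights from 99 at Znrd1 to 344 at Baz2a, a subunit of the complex that silences ribosomal RNA genes. Of the small nucleolar RNP genes, 9 of 9 had H3K27ac and 6 had PHF6, and of the ribosome assembly genes 25 of 25 and 23. The 5 pathway genes without PHF6 at the start were the pseudouridine synthase Dkc1 (H3K27ac 117) and its partner Nop10 (57), the helicase Ruvbl1 (252), Pes1 (173) and the methyltransferase Ftsj3 (276). H3K27me3 was at the starts of Polr1d (22), Taf1c (35) and Nop10 (23). Median heights at the start sites were 272.0 for H3K27ac and 34.5 for PHF6. Both were lower than the 304.5 of the 8 described genes with H3K27ac at a start and the 36.5 of the 6 with PHF6 there.

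Cytoplasmic ribosomal protein genes, which supply the protein side of the same ribosomes, carried H3K27ac and PHF6 alike, but many also had H3K27me3. Of 52 such genes with a start site, 48 had H3K27ac (median height 311.0) and 46 had PHF6 (36), close to the medians of 304.5 and 36.5 in the nucleolar genes. The name rule for this list also took in genes whose names end in l. Those without H3K27ac at a start were Rpl10l, Rpl32l, Rpl39l and Rpl3l, and none of them had H3K27me3 there. H3K27me3 lay within 1 kb of a start site in 25 of the 52 (48.1%), against 0 of 8 nucleolar genes and 3.53% of all genes. The lists are of unequal size, and this difference was not tested. Ribosomal protein genes have many near-identical pseudogene copies, so reads from them cannot always be placed with certainty, and the part of this in the H3K27me3 calls was not tested.

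**Figure D5:**
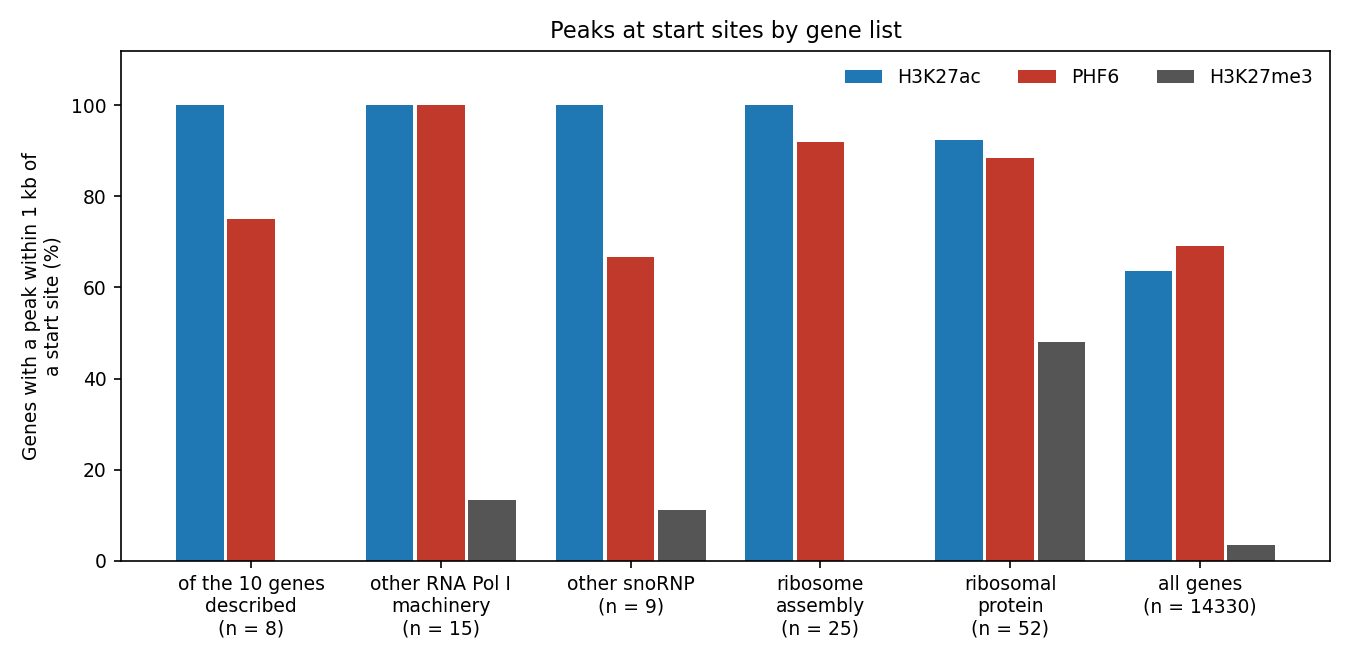
Share of genes with a peak of each antibody within 1 kb of a start site (y axis, %) for the 8 of the 10 genes with a start site, 3 lists of other pathway genes, ribosomal protein genes and all genes, with the number of genes under each. H3K27ac is at every start site of the first 4 groups, and H3K27me3 is highest in the ribosomal protein genes, at 48.1%, against 13.3% and 11.1% in the other RNA polymerase I and small nucleolar RNP genes.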

How the data were processed

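Peak lists of 3 ChIP-seq libraries were used, 1 per antibody. Per the submitters' processing notes, Bowtie2, SAMtools and MACS 1.4.0 were used with mouse build mm9, without order or options. Names of the deposited lists give a threshold of 1e-6 and mark PHF6 and H3K27ac, but not H3K27me3, as made without local background. The deposited score per peak starts at 60, and the deposited signal per summit is a whole-number pileup height, both the authors' own values. Read totals are not in the lists, so depth is unknown and no interval was computed.

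Gene positions came from RefSeq GRCm38.p6 and were moved to mm9. The offset was that at which H3K27ac summits of height 200 or more, within 500 bp, matched the most genes within 1.5 Mb, centred over both strands. A match of at least 5 genes and 1.5 times the next best was required, or agreement of neighbouring genes within 1 kb. This placed 16962 of 21900 genes. Placement rests on tall H3K27ac, so shares over all genes may lean to active regions. Where the unplaced genes lie was not tested. The routine was tested on simulated offsets. Each of the 10 genes was placed by its own estimate. Peaks were assigned with 1 bp of overlap. Percentiles are ranks within a list. Work was done with matplotlib 3.10.9, scipy 1.17.1, pandas 2.3.3 and numpy 2.4.6 in Python 3.11.15.

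The members, lists and motifs were chosen with earlier results of these data known. All 10 members are named, as are protein-coding genes that start in their windows and pathway genes that differ from the rest of their list when 5 or fewer. Noncoding neighbours, some pathway examples and the markers, and the comparison of base composition, were chosen after values were seen. Alternatives were other flanks, distances, scores, offsets and rankings. Start sites were not at hand for Npm1 and Fbl.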

Additional observations from a re-analysis of the deposited data

How the results depend on the processing

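Of the counts over the 10 genes, those of H3K27ac and PHF6 stayed within 1.5 times under every alternative run. PHF6 in the window was 10 with a flank of 25 kb, where Nop58 gained a peak, and PHF6 at the start was 5 with a score of at least 100, where Nolc1 lost its peak. For H3K27me3, the 3 genes with a peak in the window became 5 with a flank of 25 kb and 1 when the member had to be the nearest start site, which leaves out Npm1 and Fbl by construction and gives the Rrn3 peak to Ntan1. The 0 at the start became 1 within 2 kb, the peak in Ncl. The median percentile of the PHF6 summits at the start, 92.8 by height in the whole list, was 67.8 by deposited score and 63.6 among the start-site peaks of all genes. For H3K27ac, 88.9 became 87.0 and 68.6, and 87.0 is the tied rank of the score ceiling. The cause of the difference between score and height was not tested. Over genes placed by their own estimate, a choice made after seeing the data like the offset without the member itself, the shares with a start-site peak were 73.9% for PHF6 and 68.7% for H3K27ac. Estimating the offset without the gene itself changed no count. No paired analysis was possible because there is a single library for every antibody. Depth is unknown, so a missing peak shows only that none was called at this threshold.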

Other observations

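Ribosomal RNA genes outside the reach of RNA polymerase I differed in their peaks from the starts of the nucleolar genes. The 5S ribosomal RNA, made by RNA polymerase III, is encoded by a tandem array on chromosome 8, of which 41 annotated copies span 83.3 kb at chr8:126062660-126145922 once moved to mm9. The array held 31 H3K27me3 peaks that covered 74.7 kb of it, with heights of 13 to 23 and a median of 17.0. It also held 8 H3K27ac peaks covering 55.7 kb, with heights of 28 to 46, and 0 PHF6 peaks. These H3K27ac heights were far below the 156 to 371 at the starts of the nucleolar genes, but near the median of 35.0 of the whole H3K27ac list. By height, the array's peaks had a median percentile of 49.1 in the H3K27ac list and 55.6 in the H3K27me3 list. The repeats made by RNA polymerase I were not analysed, so the array was not compared with them. The copies are near-identical, so reads cannot be placed with certainty among them. The input library was not analysed here, and signal common to all libraries in this array was not tested.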
